A study of Homo sapiens with 6 samples.

Results

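DNA mismatch repair removes bases that were mispaired, slipped or looped out when the DNA was copied. The genes described here are 6 of its core components, MLH3, PMS1, PMS2, MSH3, MSH6 and EXO1, chosen by name from the 60666 genes listed in the files, and all 6 were among the 16959 genes that passed the filter on low counts and were tested. The RNA-seq data compare DNMT3B KO cells, a line derived from HCT116 that lacks the de novo DNA methyltransferase DNMT3B, with the parental HCT116 cells, a colorectal cancer line known to be deficient in mismatch repair. Each line was untreated and gave 3 libraries of poly(A)-selected RNA. The knockout is a single derived line, so the loss of DNMT3B and any other difference that this line acquired in culture cannot be told apart.

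In mismatch repair, a MutS complex finds the error, a MutL complex is recruited to it and nicks the new strand, and an exonuclease removes the stretch around the error so that it can be filled in again. MSH6 gives the MutS complex its preference for single mispairs and small loops, and MSH3 gives it a preference for larger loops. PMS2, PMS1 and MLH3 are alternative subunits of MutL complexes, of which PMS2 and MLH3 carry an endonuclease motif, and EXO1 is the exonuclease. MSH6 also carries a PWWP domain that reads H3K36me3, the mark that the PWWP domain of DNMT3B reads.

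MLH3 rose in DNMT3B KO cells, to 33.3 ± 1.96 CPM, against 16.0 ± 5.25 CPM in HCT116 cells (SD, n = 3 each), and PMS1 fell to 33.6 ± 2.23 CPM in DNMT3B KO cells, against 45.7 ± 4.06 CPM in HCT116 cells. CPM is the count of a gene relative to the normalized size of its library. PMS2, MSH3, MSH6 and EXO1 did not pass the test. Of the 6 genes, 1 rose, 1 fell and 4 did not pass at an adjusted p under 0.05 by the quasi-likelihood test of edgeR, whereas 28.1% of all tested genes changed, 12.9% higher and 15.1% lower in DNMT3B KO cells. The count among the 6 genes is near what these shares give. Their median log2 fold change was 0.31, beside -0.00 over all tested genes. The libraries of the lines did not overlap for 4 of the 6, MLH3, PMS2 and MSH3 higher and PMS1 lower in DNMT3B KO cells, and did not overlap for 45.9% of all tested genes.

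The promoters of the MLH3 and PMS1 genes are printed first, because these genes passed the test and CpG dinucleotides are the sites at which DNMT3B acts. Each runs 5′ to 3′ on the strand of its gene, from 250 bases before the start site to 50 bases from it, in the GRCh38.p14 assembly of RefSeq, and CpG dinucleotides are in capitals.
MLH3 promoter, chr14:75051418-75051717, minus strand: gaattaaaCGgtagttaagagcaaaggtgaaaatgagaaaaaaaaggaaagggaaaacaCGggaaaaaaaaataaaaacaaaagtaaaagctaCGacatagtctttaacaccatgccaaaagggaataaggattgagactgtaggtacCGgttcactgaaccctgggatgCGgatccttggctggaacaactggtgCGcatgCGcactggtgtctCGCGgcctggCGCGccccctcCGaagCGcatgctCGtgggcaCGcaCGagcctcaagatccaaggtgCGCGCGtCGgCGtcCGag
PMS1 promoter, chr2:189784200-189784499, plus strand: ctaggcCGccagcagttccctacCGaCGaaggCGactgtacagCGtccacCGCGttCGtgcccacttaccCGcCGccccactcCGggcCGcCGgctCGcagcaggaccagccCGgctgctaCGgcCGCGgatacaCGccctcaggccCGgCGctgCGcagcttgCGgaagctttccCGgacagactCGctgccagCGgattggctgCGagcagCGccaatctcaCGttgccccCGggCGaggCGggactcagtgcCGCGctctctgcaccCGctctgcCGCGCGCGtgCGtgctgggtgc
The MLH3 promoter held 22 CpG dinucleotides at a GC content of 51.0%, and the PMS1 promoter held 40 at 72.0%. The median over 35114 such windows of 27303 genes was 14 CpG dinucleotides and 58.7% GC, so that MLH3 stood at the 64.2 percentile for CpG number and PMS1 at the 93.3 percentile. PMS2 held 24 CpG dinucleotides, EXO1 33, MSH3 37 and MSH6 39. Of the 6 windows, that of PMS1 held the most CpG dinucleotides and that of MLH3 the fewest, close to that of PMS2. ORMDL1, a gene described below that starts within the PMS1 window on the opposite strand, rose where PMS1 fell. Whether CpG number bears on the changes in these genes was not tested. DNA methylation of these windows was not analysed here.

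The promoter of EXO1 is shown for a motif of the type that E2F factors bind, TTTNNCGC, since E2F factors drive genes of the S phase and the libraries differed in the level of S phase transcripts. The motif was searched on both strands and is in capitals.
EXO1 promoter, chr1:241847954-241848253, plus strand: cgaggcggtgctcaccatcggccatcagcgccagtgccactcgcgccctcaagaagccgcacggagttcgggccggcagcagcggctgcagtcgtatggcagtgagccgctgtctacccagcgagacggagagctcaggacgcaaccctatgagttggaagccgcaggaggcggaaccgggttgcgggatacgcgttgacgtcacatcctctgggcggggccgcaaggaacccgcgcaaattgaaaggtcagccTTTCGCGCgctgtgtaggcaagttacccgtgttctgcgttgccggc
The MSH3 promoter held the motif 2 times, as overlapping matches on opposite strands that start 107 and 103 bases before the start site. The EXO1 promoter held it 1 time, as did those of PMS2 and MSH6. These letters were not in the windows of MLH3 and PMS1. They were in 6.89% of all windows. The CCAAT box, searched as CCAAT on both strands, was found 3 times in the PMS2 promoter, 2 times in that of PMS1 and 1 time in that of MSH6, and was in 34.6% of all windows. A match describes the sequence and is not a measured binding site.

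The libraries held between 55436267 and 68274783 counts. DNMT3B had 2.54, 2.87 and 2.83 CPM in DNMT3B KO libraries, against 38.5, 30.1 and 39.5 CPM in HCT116 libraries (log2 fold change -3.71 ± 0.15 SE, edgeR adjusted p = 2.5e-06), in the direction of the labels. The HCT116 libraries lay further apart than those of DNMT3B KO, with replicates 2 and 3 at opposite ends of the second principal component, which held 13.5% of the variance. Of all tested genes, 23.9% were lowest in HCT116 replicate 2, 25.8% in replicate 3 and 9.30% in replicate 1. Correlations between libraries of log2 CPM lay between 0.993 and 0.994 in DNMT3B KO cells and between 0.979 and 0.990 in HCT116 cells. Of 10 markers of colon epithelium, 8 were tested, 1 rose and 5 fell, beside 12.9% of all tested genes that rose and 15.1% that fell. Their summed levels were 2123 to 2311 CPM in DNMT3B KO libraries and 4390 to 5258 CPM in HCT116 libraries. The marker that rose was VIL1, at 1.05 ± 0.694 CPM in DNMT3B KO cells and 0.0841 ± 0.0190 CPM in HCT116 cells (SD, n = 3 each, edgeR adjusted p = 0.0026). Keratins KRT8, KRT18 and KRT19 and the adhesion protein CDH1 were among those that fell. KRT8 averaged 1004 ± 40.4 CPM in DNMT3B KO cells and 2178 ± 407 CPM in HCT116 cells (SD, n = 3 each), and CDH1 averaged 21.8 ± 1.01 CPM in DNMT3B KO cells and 70.8 ± 17.7 CPM in HCT116 cells. EPCAM, another epithelial adhesion protein, did not pass the test, at 285 ± 18.9 CPM in DNMT3B KO cells and 302 ± 22.2 CPM in HCT116 cells (SD, n = 3 each). Nor did CDX2, at 20.3 ± 0.838 CPM in DNMT3B KO cells and 22.4 ± 1.38 CPM in HCT116 cells (SD, n = 3 each). Markers of fibroblasts, immune cells, blood and endothelium summed to 16.3 to 20.04 CPM in DNMT3B KO libraries and 10.8 to 22.5 CPM in HCT116 libraries, most of it COL1A1 and with LUM at 0 throughout. Of these 14 markers 5 were tested and 2 rose, among them PTPRC. It had 0.236, 0.252 and 0.335 CPM in DNMT3B KO libraries, against 0, 0.0157 and 0 CPM in HCT116 libraries. The part of these marker differences in the results below was not tested.

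Per kilobase of transcript, MSH6 was the most abundant of the 6 mRNAs in both lines, with 26.8 ± 1.07 CPM per kilobase in DNMT3B KO cells and 29.6 ± 5.83 in HCT116 cells. EXO1 followed with 20.2 ± 1.29 CPM per kilobase in DNMT3B KO cells and 14.5 ± 6.80 in HCT116 cells. PMS1 had 10.6 ± 0.706 CPM per kilobase in DNMT3B KO cells and 14.5 ± 1.29 in HCT116 cells, and PMS2 had 9.97 ± 0.270 in DNMT3B KO cells and 9.07 ± 0.550 in HCT116 cells. At the low end, MLH3 had 4.26 ± 0.250 CPM per kilobase in DNMT3B KO cells and 2.04 ± 0.671 in HCT116 cells, and MSH3 had 0.958 ± 0.0521 in DNMT3B KO cells and 0.656 ± 0.0959 in HCT116 cells. The libraries of PMS1 and PMS2 overlapped in DNMT3B KO cells, as did those of EXO1 with both PMS1 and PMS2 in HCT116 cells, so the order of these neighbours was within the spread. All other neighbours in the order were separated in every library of the line.

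MSH6, the subunit for single mispairs, lies at chr2:47783145-47806953 on the plus strand with 10 exons (ENSG00000116062). It had 109, 115 and 118 CPM in DNMT3B KO libraries, against 131, 99.4 and 149 CPM in HCT116 libraries. The HCT116 libraries spread more widely, and replicate 2 lay below every DNMT3B KO library while the other two lay above. The log2 fold change was -0.14 ± 0.14 SE (95% interval -0.47 to 0.18, edgeR adjusted p = 0.49). Without HCT116 replicate 2 it was -0.30 (edgeR adjusted p = 0.029) and passed the test, and without HCT116 replicate 3 it was -0.01 (edgeR adjusted p = 0.96). MSH6 shares 34 exon bases with FBXO11 on the opposite strand.

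MSH3, the subunit for larger loops, lies at chr5:80654652-80876815 on the plus strand with 24 exons (ENSG00000113318). It was the scarcest of the 6 mRNAs, with between 123 and 322 counts per library. MSH3 had 4.46, 4.29 and 4.01 CPM in DNMT3B KO libraries, against 3.27, 3.03 and 2.44 CPM in HCT116 libraries. Every DNMT3B KO library lay above every HCT116 library, as was the case for 23.3% of all tested genes. The log2 fold change was 0.55 ± 0.19 SE (95% interval 0.11 to 0.98), which did not pass after adjustment over all tested genes (edgeR adjusted p = 0.068). It passed with the Wald test of DESeq2 (adjusted p = 0.025) and under no other alternative. There, adjusted p lay between 0.057 with limma-voom and 0.19 with edgeR without DNMT3B KO replicate 1.

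The MutS proteins share a partner, and the ratio of MSH6 to MSH3 within a library does not depend on how the library was scaled. The ratio of CPM, which is not adjusted for transcript length, was 24.5, 26.7 and 29.6 in DNMT3B KO libraries, against 40.1, 32.8 and 60.9 in HCT116 libraries. The lines did not overlap, and the ratio in DNMT3B KO cells was 0.623 times that in HCT116 cells (log2 difference -0.68). This difference combines the log2 fold changes of MSH6 (-0.14) and MSH3 (0.55) given above and is not separate support for them. An exact two-sided permutation test over the libraries gave p = 0.1, the smallest that 20 arrangements of 3 against 3 libraries allow.

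PMS2, the main partner subunit of the MutL endonuclease, lies at chr7:5970925-6009049 on the minus strand with 15 exons (ENSG00000122512). It had 50.0, 52.4 and 50.0 CPM in DNMT3B KO libraries, against 46.0, 43.5 and 49.1 CPM in HCT116 libraries. The DNMT3B KO libraries lay above those of HCT116 by a narrow margin, with a log2 fold change of 0.14 ± 0.08 SE (95% interval -0.06 to 0.33, edgeR adjusted p = 0.27). PMS2 values are uncertain, since near-identical pseudogenes share its reads and the counting can divide them. The 13 PMS2 pseudogenes in the files summed to 37.6, 37.8 and 35.8 CPM in DNMT3B KO libraries, against 36.4, 39.8 and 33.2 CPM in HCT116 libraries, and 0 of the 9 that were tested changed by edgeR, at an unadjusted p under 0.05 as well, or by DESeq2 or limma-voom.

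PMS1, a MutL homologue without a settled role in human mismatch correction, lies at chr2:189784450-189877629 on the plus strand with 13 exons (ENSG00000064933). It had 35.7, 33.7 and 31.2 CPM in DNMT3B KO libraries, against 48.7, 47.2 and 41.1 CPM in HCT116 libraries. All DNMT3B KO libraries lay below all HCT116 libraries, as was the case for 22.6% of all tested genes. PMS1 fell by 0.44 ± 0.10 SE on the log2 scale (95% interval -0.68 to -0.21, edgeR adjusted p = 0.013). The call was lost without HCT116 replicate 1 (edgeR adjusted p = 0.064), DNMT3B KO replicate 2 (0.054) or DNMT3B KO replicate 3 (0.061), with log2 fold changes of -0.51 to -0.40 over the 6 libraries left out in turn.

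MLH3, a MutL homologue with an endonuclease motif that acts in meiotic crossovers and in part of mismatch repair, lies at chr14:75013775-75051467 on the minus strand with 13 exons (ENSG00000119684). It had 35.2, 31.3 and 33.4 CPM in DNMT3B KO libraries, against 13.9, 21.9 and 12.04 CPM in HCT116 libraries. The DNMT3B KO libraries were close to each other and all above those of HCT116, among which replicate 2 was the highest. MLH3 was 2.09 times as high in DNMT3B KO cells (log2 fold change 1.06 ± 0.21 SE, 95% interval 0.58 to 1.54, edgeR adjusted p = 0.0073). It passed the test with each of the 6 libraries left out, at log2 fold changes between 0.90 and 1.35 and edgeR adjusted p between 4.6e-05 and 0.037. A change larger in size was measured for 2482 of the tested genes.

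**Figure D1:**
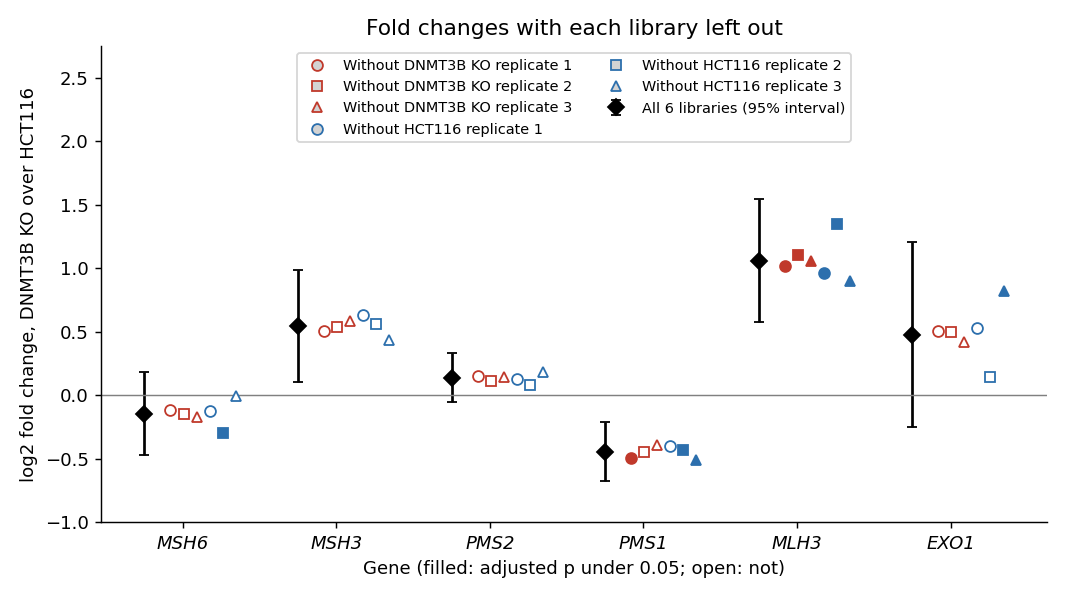
Log2 fold change of DNMT3B KO over HCT116 for the 6 genes, with all libraries (black, bars are the 95% interval) and with each library left out (colours and shapes name the library), where filled coloured symbols passed the edgeR test. MLH3 stays between 0.90 and 1.35 and is filled throughout, while EXO1 runs between 0.14 and 0.82 with the HCT116 library that is left out.

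The MutL subunits also compete for a partner, so their proportions were compared within libraries. The ratio of PMS2 to PMS1 was 1.40, 1.55 and 1.60 in DNMT3B KO libraries, against 0.944, 0.921 and 1.20 in HCT116 libraries, which is 1.495 times as high in DNMT3B KO cells (log2 difference 0.58). The ratio of PMS2 to MLH3 was 1.42, 1.67 and 1.497 in DNMT3B KO libraries, against 3.31, 1.98 and 4.08 in HCT116 libraries, which is 0.510 times that in HCT116 cells (log2 difference -0.97). The lines did not overlap in either ratio. Since PMS2 differed little between the lines (log2 fold change 0.14), these ratios mostly restate the fall of PMS1 (-0.44) and the rise of MLH3 (1.06). They are not separate support for those changes. The exact two-sided permutation test gave p = 0.1 for each of the 3 ratios compared, also after adjustment over the 3, and a design of 3 against 3 libraries cannot go below it.

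EXO1, the exonuclease of the excision step, lies at chr1:241848204-241889939 on the plus strand with 16 exons (ENSG00000174371). It had 66.6, 67.4 and 74.7 CPM in DNMT3B KO libraries, against 53.8, 24.97 and 71.4 CPM in HCT116 libraries. HCT116 replicate 2 lay far below every other library, and the lines overlapped. The log2 fold change was 0.48 ± 0.32 SE (95% interval -0.25 to 1.20, edgeR adjusted p = 0.30). It was 0.14 without HCT116 replicate 2 (edgeR adjusted p = 0.42), and 0.82 without HCT116 replicate 3 (edgeR adjusted p = 0.048), where it passed the test.

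EXO1 varied across the HCT116 libraries together with S phase genes. Of 20 genes whose transcripts peak at the start of or in DNA replication, 19 were lowest in HCT116 replicate 2, as were 13 of 15 genes of excision and resynthesis. Among the 6 mismatch repair genes 3 were lowest there, namely PMS2, MSH6 and EXO1, beside 23.9% of all tested genes. Relative to each gene's mean over the 6 libraries, the median S phase gene was at 0.03, 0.13 and 0.10 on the log2 scale in DNMT3B KO libraries, against 0.08, -0.65 and 0.29 in HCT116 libraries. In HCT116 replicate 2, EXO1 was at -1.17, MSH6 at -0.26 and PMS2 at -0.15 on this scale. There, MSH3 was at -0.20, MLH3 at -0.05, its highest HCT116 library, and PMS1 at 0.27. MSH3 was lowest in HCT116 replicate 3, at -0.51, as was MLH3, at -0.91. The motif shown above for EXO1 is also in the windows of PMS2, MSH6 and MSH3. Whether the motif bears on these levels was not tested. In bulk RNA, fewer cells in S phase and less RNA of S phase genes per cell cannot be told apart. The part of the S phase level in the results for the 6 mismatch repair genes was not tested.

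**Figure D2:**
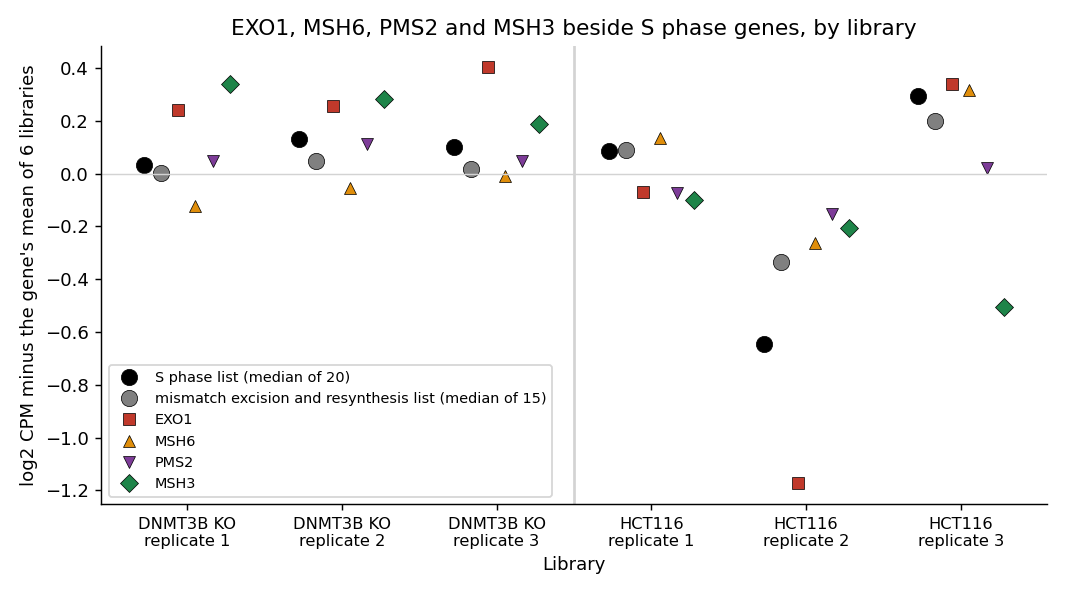
Log2 CPM of each library relative to the gene's mean over 6 libraries, for EXO1, MSH6, PMS2 and MSH3 and for the medians of the S phase and excision lists. In HCT116 replicate 2 the S phase median is at -0.65 and EXO1 at -1.17, while the DNMT3B KO libraries lie closer together.

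The starts of PMS1 and PMS2 each lie near that of another gene on the opposite strand. ORMDL1, a regulator of sphingolipid synthesis, starts 111 bases from PMS1, within the PMS1 window printed above. It had 31.0, 32.5 and 32.2 CPM in DNMT3B KO libraries, against 25.8, 27.3 and 24.6 CPM in HCT116 libraries. ORMDL1 thus rose (log2 fold change 0.30 ± 0.09 SE, edgeR adjusted p = 0.036) where PMS1 fell, without overlap of the lines in either gene. The call for ORMDL1 was lost with 5 of the 6 libraries left out, where edgeR adjusted p reached 0.13, and with no filter on low counts (edgeR adjusted p = 0.091).

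AIMP2, a scaffold protein of the aminoacyl-tRNA synthetase complex, starts 223 bases from PMS2. It had 53.6, 60.6 and 59.1 CPM in DNMT3B KO libraries, against 44.5, 38.8 and 56.9 CPM in HCT116 libraries (log2 fold change 0.31 ± 0.14 SE, edgeR adjusted p = 0.15). Like PMS2, it was lowest in HCT116 replicate 2. Its log2 fold change was 0.18 without HCT116 replicate 2 (edgeR adjusted p = 0.28), and 0.47 without HCT116 replicate 3 (edgeR adjusted p = 0.011), where it passed the test.

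**Figure D3:**
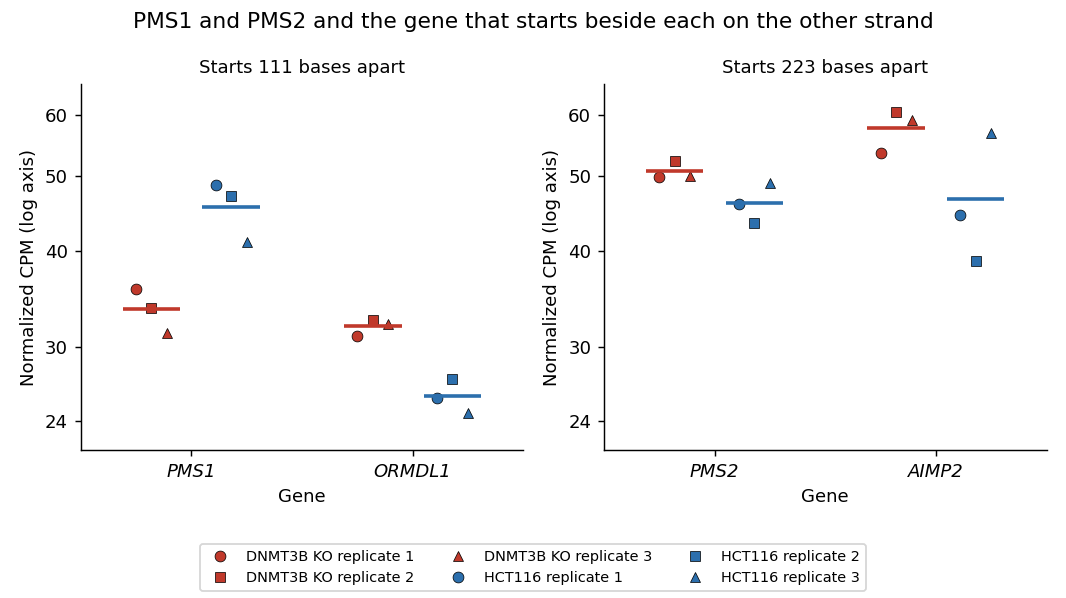
Normalized CPM, on log axes, of PMS1 and PMS2 beside the gene that starts next to each on the opposite strand, in DNMT3B KO (red) and HCT116 (blue) libraries with a bar at the mean of each line. PMS1 and ORMDL1 differ between the lines in opposite directions, and AIMP2 and PMS2 are both lowest in HCT116 replicate 2.

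For each of the 6 genes, the closest tested gene had the smallest root mean square difference of log2 CPM over the 6 libraries. Each gene was centred on its mean and was not scaled, so genes that vary little can lie close whatever their pattern. EXO1 was closest to MCM10 at a difference of 0.0919, and MSH6 to DBF4 at 0.0190. PMS2 was closest to PSPC1 at 0.0145, MSH3 to CMTR1 at 0.0382, PMS1 to NAPB at 0.0449 and MLH3 to HHLA3 at 0.0754. Among the 6 genes themselves, the difference was smallest between PMS2 and MSH6, at 0.184, and largest between MLH3 and PMS1, at 0.807. PMS2 and MSH6 both varied little, and their log2 fold changes had opposite signs, 0.14 and -0.14. With 6 libraries of 2 lines and 16959 genes to choose from, close matches describe these libraries only.

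Of 15 genes that carry out excision and resynthesis, among them the clamp PCNA, its loader RFC, the single-strand binding protein RPA, DNA polymerase delta and ligase LIG1, 1 fell and 14 did not pass by edgeR, at a median log2 fold change of -0.02. Over all tested genes, 28.1% changed. The gene that fell was POLD4, the smallest subunit of polymerase delta, with 4.62, 5.82 and 4.08 CPM in DNMT3B KO libraries, against 15.9, 21.8 and 9.78 CPM in HCT116 libraries (log2 fold change -1.71 ± 0.29 SE, edgeR adjusted p = 0.0036). It passed with each library left out. The count for this list was 4 without HCT116 replicate 2 and 3 without HCT116 replicate 3.

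Of 8 accessory genes tied to mismatch repair, 2 rose and 6 did not pass, at a median of 0.22. This count is near what the share of all tested genes that changed, 28.1%, gives. FAN1, a nuclease that binds the MutL proteins, had 56.2, 53.3 and 46.2 CPM in DNMT3B KO libraries, against 39.8, 39.6 and 37.9 CPM in HCT116 libraries (log2 fold change 0.41 ± 0.10 SE, edgeR adjusted p = 0.016). SETD2, the methyltransferase that writes the H3K36me3 read by MSH6, had 137, 130 and 125 CPM in DNMT3B KO libraries, against 102, 99.96 and 105 CPM in HCT116 libraries (log2 fold change 0.35 ± 0.08 SE, edgeR adjusted p = 0.013). Both calls were lost without HCT116 replicate 1, DNMT3B KO replicate 1 or DNMT3B KO replicate 2, where edgeR adjusted p lay between 0.054 and 0.074.

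Base excision repair also removes mismatched bases, through glycosylases that cut out thymine or uracil opposite guanine. Of 16 base excision repair genes, not all of them glycosylases, 1 rose, 1 fell and 14 did not pass, at a median of 0.03. The share of all tested genes that changed was 28.1%. MBD4, a glycosylase for mismatches at methylated CpG sites, had 25.5, 25.5 and 24.6 CPM in DNMT3B KO libraries, against 20.6, 19.4 and 21.1 CPM in HCT116 libraries (log2 fold change 0.31 ± 0.09 SE, edgeR adjusted p = 0.039). LIG3, the ligase that acts with XRCC1, had 51.7, 51.9 and 52.2 CPM in DNMT3B KO libraries, against 69.5, 62.8 and 83.5 CPM in HCT116 libraries (log2 fold change -0.47 ± 0.11 SE, edgeR adjusted p = 0.017). The call for MBD4 was lost with no filter on low counts (edgeR adjusted p = 0.11) and with 5 of the 6 libraries left out, and that for LIG3 with 4. Both were lost, with no other gene of the list gained, without HCT116 replicate 1 or without any single DNMT3B KO library.

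Of the 20 S phase genes, 1 rose, 1 fell and 18 did not pass, at a median of 0.13, beside 28.1% of all tested genes that changed. PRIM1, the catalytic subunit of DNA primase, had 75.2, 80.8 and 83.7 CPM in DNMT3B KO libraries, against 52.0, 33.3 and 54.2 CPM in HCT116 libraries (log2 fold change 0.78 ± 0.17 SE, edgeR adjusted p = 0.012). MCM4, a subunit of the replicative helicase, had 199, 192 and 184 CPM in DNMT3B KO libraries, against 415, 217 and 483 CPM in HCT116 libraries (log2 fold change -0.96 ± 0.26 SE, edgeR adjusted p = 0.026). PRIM1 lost its call with 2 libraries left out and MCM4 with 4, and the count was 4 without HCT116 replicate 2, 1 without HCT116 replicate 1 or DNMT3B KO replicate 1, and 0 without DNMT3B KO replicate 2 or 3.

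Of 8 genes of meiotic crossovers, in which MLH3 also acts, 5 passed the filter on low counts, 1 fell and 4 did not pass the test, at a median of -0.17. The share that changed among all tested genes was 28.1%. The gene that fell, MSH4, a meiotic MutS homologue, was named after its values were seen, since it lay under 1 CPM in both lines. It had 0.139, 0.0839 and 0.183 CPM in DNMT3B KO libraries, against 0.602, 0.644 and 0.357 CPM in HCT116 libraries (log2 fold change -1.97 ± 0.42 SE, edgeR adjusted p = 0.010). MSH5, the partner of MSH4, had 18.7, 15.5 and 12.8 CPM in DNMT3B KO libraries, against 21.1, 20.4 and 11.5 CPM in HCT116 libraries, and overlapped between the lines.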

How the data were processed

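Stranded poly(A)-selected RNA libraries of DNMT3B KO and HCT116 cells, 3 of each, were sequenced in paired-end mode. Per the labels and the study's methods, the authors aligned reads to hg38 with STAR, quantified annotated transcripts with Salmon and deposited estimated counts per gene, scaled for gene length, in 1 table per library. How the strand was used in counting is not given in the sources used here.

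The deposited estimated counts were rounded. After filterByExpr, which kept 16959 of 60666 genes, and TMM normalization, the lines were compared in edgeR 4.0.16 (R 4.3.3) by its quasi-likelihood F test. Genotype was the one factor, as in the study's methods, which used DESeq2. Benjamini-Hochberg adjustment ran over all tested genes, with calls at an adjusted p under 0.05. The SE is the size of the log2 fold change divided by the square root of F, and 95% intervals use the t quantile of the fit and are not adjusted. Levels are TMM-normalized CPM. Ratios were compared by an exact two-sided permutation test over libraries. Nothing in the labels says that replicate libraries were grown as separate cultures. The p-values therefore reflect the spread between libraries alone, which may be technical.

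Positions are from GENCODE release 44 on the same build, which matched 60437 of the 60666 gene IDs, and promoter windows from RefSeq, GRCh38.p14, where all 6 genes matched. The lengths per kilobase are those of 1 annotated transcript per gene. The genes and the lists were chosen with earlier results of these data known. Named are all 6 genes, DNMT3B and up to 4 called genes of each list with at least 1 CPM in a line. Also named are genes on the opposite strand that start within 1000 bases and the gene of the smallest root mean square difference. For that difference, log2 CPM were taken with a pseudocount of 0.1. Alternatives were DESeq2 size factors, the Wald test of DESeq2 1.42.0, limma-voom (limma 3.58.1), no filter, a replicate block, thinning to 20000000 counts per library, and leaving out each library. The fit was tested on simulated counts. Some genes that the naming rule covers are not reported here.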

Additional observations from a re-analysis of the deposited data

How the results depend on the processing

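Of 72 values for the 6 mismatch repair genes under the alternatives, 66 kept their direction and side of the threshold, 3 lost a call, 3 gained one and 0 reversed. With 1 library left out, the count of these genes that changed was 1 to 3, beside 2 with all libraries, and it was 1 without HCT116 replicate 1, DNMT3B KO replicate 2 or DNMT3B KO replicate 3. Over all tested genes it was 3049 to 5924, beside 4761, and lay more than 1.5 times lower without HCT116 replicate 1 (3109), DNMT3B KO replicate 1 (3148), replicate 2 (3049) or replicate 3 (3095). The range was 1 to 4 for excision and resynthesis genes, 0 to 3 for accessory genes, 1 to 2 for meiotic crossover genes, 0 to 2 for base excision repair genes and 0 to 4 for S phase genes. Accessory genes numbered 0 without HCT116 replicate 1, DNMT3B KO replicate 1 or DNMT3B KO replicate 2, base excision repair genes 1 and meiotic crossover genes 2 without HCT116 replicate 2. With no filter on low counts, 2 excision and resynthesis genes, 2 meiotic crossover genes and 1 base excision repair gene changed. Meiotic crossover genes numbered 2 with DESeq2 and 0 after thinning, where MSH4 was filtered out. The cause of these changes was not tested. With 1 library left out, log2 differences of the ratios were -0.88 to -0.43 for MSH6 to MSH3, 0.51 to 0.70 for PMS2 to PMS1 and -1.27 to -0.75 for PMS2 to MLH3.

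Libraries with the same replicate number deviated together with correlations of 0.0851, -0.0134 and 0.153 over 16959 genes, so the numbers were not taken as pairs. With a replicate block, 4214 genes and 2 mismatch repair genes changed (MLH3 1.11, edgeR adjusted p = 0.014; PMS1 -0.44, edgeR adjusted p = 0.018), 2 accessory, 2 S phase, 1 excision and resynthesis, 1 meiotic crossover and 1 base excision repair gene. The calls for ORMDL1 (edgeR adjusted p = 0.067) and MBD4 (edgeR adjusted p = 0.078) were lost under the block. Among the 6 mismatch repair genes, MSH3 had the fewest counts, 123 to 322 per library, and MSH4 lay lower still.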
